A study of Mus musculus with 30 samples.

Results

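Expression of 39 genes of the Wnt pathway was followed in the cervical spinal cord of mice over the first 6 weeks after a stroke of the motor cortex. The genes were chosen by name: the Wnt ligands, the Frizzled receptors, the co-receptors Lrp5, Lrp6, Ryk, Ror1 and Ror2, the secreted Sfrp and Dkk proteins, the ligand secretion factors Porcn and Wls, and the intracellular genes Axin1, Axin2, Ctnnb1, Lef1, Tcf7l1 and Tcf7l2. The rule used no measured value. It covers 50 annotated mouse genes, and 39 of them were among the 16995 genes with values: 10 ligands of 19, all 10 Frizzled receptors, all 5 co-receptors, 6 secreted modulators of 8, both secretion factors and all 6 intracellular genes. Dkk1, Dkk4, Wnt1, Wnt2, Wnt3a, Wnt6, Wnt8a, Wnt9b, Wnt10a, Wnt10b and Wnt16 were not analysed here.

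All mice were adult females of strain C57BL/6 (C57BL/6J in the study's methods). Stroke animals received Rose Bengal and illumination of the skull over the right sensorimotor cortex, which closes the vessels under the light, and were killed at 4, 7, 14, 28 or 42 days post-injury (dpi), whereas the sham group had the operation without illumination. RNA came from the intermediate laminae at C5/C6 of the hemicord that had lost its corticospinal input, a piece trimmed by hand that holds neurons, glia and vessels together. The labels list 30 animals, 5 per group, and 29 were used, because 1 animal of the 4 dpi group (A9-3) has no column of values. The study's methods describe a 4 dpi sample left out as an outlier in its own expression testing, without naming the animal. The authors chose 5 of the animals operated on for each time point by quality scores, among them lesion size, motor deficit and RNA quality. Each value is the authors' normalized CPM (a read count scaled for library size) of a gene in an animal, rounded to 0.1. The column sums differ between animals and are not those of plain CPM, so values are relative levels on the authors' scale. Sequencing depth is unknown, and precision could be judged from the variation among animals of a group and from the rounding step alone. In such bulk tissue, fewer cells of a type and less RNA per cell cannot be told apart.

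Wnt proteins are lipid-modified secreted signals. Porcn, an acyltransferase in the endoplasmic reticulum, adds the lipid, and Wls carries the ligand to the cell surface. There a ligand binds a Frizzled receptor. With the co-receptors Lrp5 or Lrp6 this stops the destruction complex, whose scaffold is Axin, from degrading β-catenin (Ctnnb1), which then enters the nucleus and joins the DNA-binding proteins Lef1, Tcf7l1 or Tcf7l2. Through Ryk, Ror1 and Ror2 other branches act on the cytoskeleton and on axon guidance, and Wnt-Ryk signalling is known for repelling corticospinal axons. Sfrp proteins bind ligands outside the cell, and most Dkk proteins bind Lrp5 and Lrp6, which is not established for Dkk3.

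In sham animals the pathway was represented at very unequal levels. Because a longer transcript yields more reads, levels of different genes were compared only per kilobase of the longest annotated transcript. Ctnnb1 was the highest of the 39 at 67.9 CPM per kilobase ± 1.49 (SD, n = 5), followed by Dkk3, a divergent member of the Dickkopf family, at 25.8 ± 3.54. Lrp6 (8.28 ± 0.531), Ryk (7.11 ± 0.634), Porcn (6.72 ± 0.450), Wls (5.73 ± 0.899) and Sfrp1 (5.59 ± 0.496) came next, and each of these 5 overlapped its neighbour in this order between animals.

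**Figure D1:**
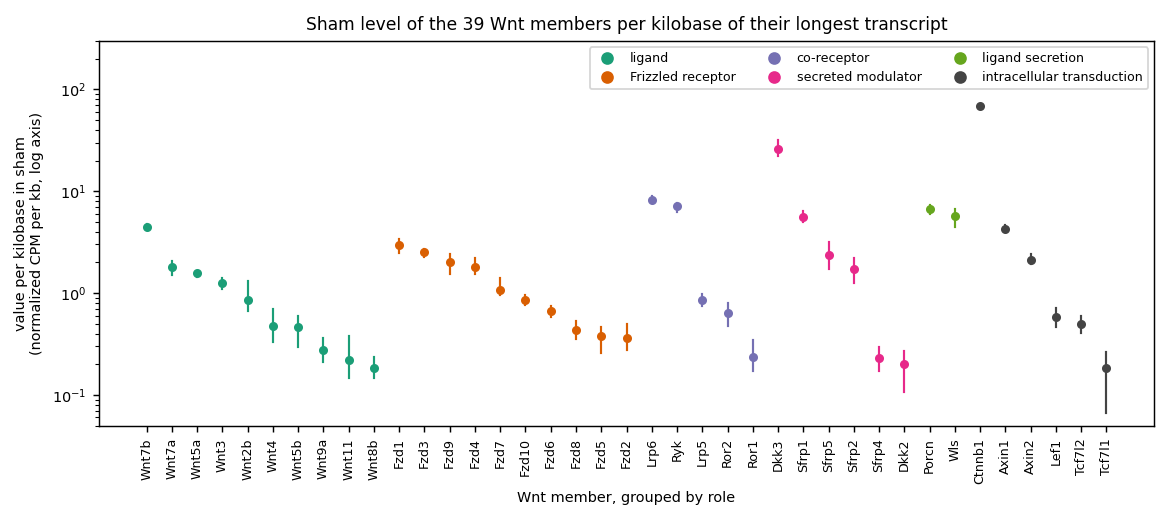
Points give the mean level of each Wnt member in the 5 sham animals, in normalized CPM per kilobase of the longest transcript on a log axis, and bars run from the lowest to the highest animal; colours mark the role. Ctnnb1 was at 67.9, and Tcf7l1 and Wnt8b, the lowest, were both at 0.184.

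The ligands were led by Wnt7b at 4.43 CPM per kilobase ± 0.240, ahead of Wnt7a (1.80 ± 0.266), Wnt5a (1.56 ± 0.0944) and Wnt3 (1.25 ± 0.114). Wnt2b, Wnt4, Wnt5b, Wnt9a, Wnt11 and Wnt8b lay between 0.184 and 0.850. Wnt7b was above all other ligands in every animal, Wnt7a and Wnt5a overlapped, and Wnt5a and Wnt3 did not. Among the receptors, Fzd1 (2.93 ± 0.368) and Fzd3 (2.53 ± 0.198) were the highest and overlapped between animals, and Fzd8, Fzd5 and Fzd2 were the lowest, at 0.435, 0.382 and 0.366. The nuclear factors were scarce: Lef1 had 0.580 ± 0.0936, Tcf7l2 0.501 ± 0.0727 and Tcf7l1 0.184 ± 0.0857, and Lef1 and Tcf7l2 overlapped. With the combined length of all annotated exons in place of the longest transcript, Wls moved from rank 6 to rank 12, Lef1 from 26 to 32 and Tcf7l2 from 27 to 35, whereas Ctnnb1 and Dkk3 stayed first and second.

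Each time point was then compared with sham, and 28 dpi with 14 dpi and 42 dpi with 28 dpi, to ask when after the stroke the pathway changed in the denervated cord. The log2(value + 0.5) of all 29 animals entered 1 limma fit, and a gene was called at an adjusted p under 0.05, with Benjamini-Hochberg adjustment over the 16995 genes. At 28 dpi 7 of the 39 members were called, of which 4 rose (Tcf7l1, Tcf7l2, Lef1 and Lrp5) and 3 fell (Ctnnb1, Ryk and Porcn). The members' share of 17.9% was below the 24.9% called among all genes at 28 dpi, where 11.9% rose and 13.0% fell. Their median log2 change was 0.04, against -0.00481 over all genes. Tcf7l1 and Tcf7l2 also passed a fold change of 1.5, a limit that 4.64% of all genes passed together with the adjusted p.

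No member was called at 4, 7, 14 or 42 dpi against sham by limma. The background at those times was 0.106%, 0.0294%, 0.00588% and 0.0235% of all genes, so hardly any gene was called. An unadjusted p under 0.05 was reached by 1 member at 4 dpi (Wnt7b), 3 at 7 dpi (Fzd3, Wnt3 and Fzd8), 1 at 14 dpi (Fzd3) and 6 at 42 dpi (Wnt7a, Fzd10, Wnt7b, Wnt3, Porcn and Ctnnb1). Of all 16995 genes, 874, 992, 1973 and 2507 did so at these times, so the members were near or below the share of all genes. Without adjustment over all genes, the median half-width of the 95% confidence interval of a member's log2 change was 0.30 at 4 dpi. It was 0.29 at the later times. Changes beyond that size were also left uncalled by limma, among them Fzd3 at 14 dpi (log2 -0.38, adjusted p = 0.380). Another was Wnt7a at 42 dpi (-0.59, adjusted p = 0.120). Changes of such a size could therefore be missed with these animals.

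**Figure D2:**
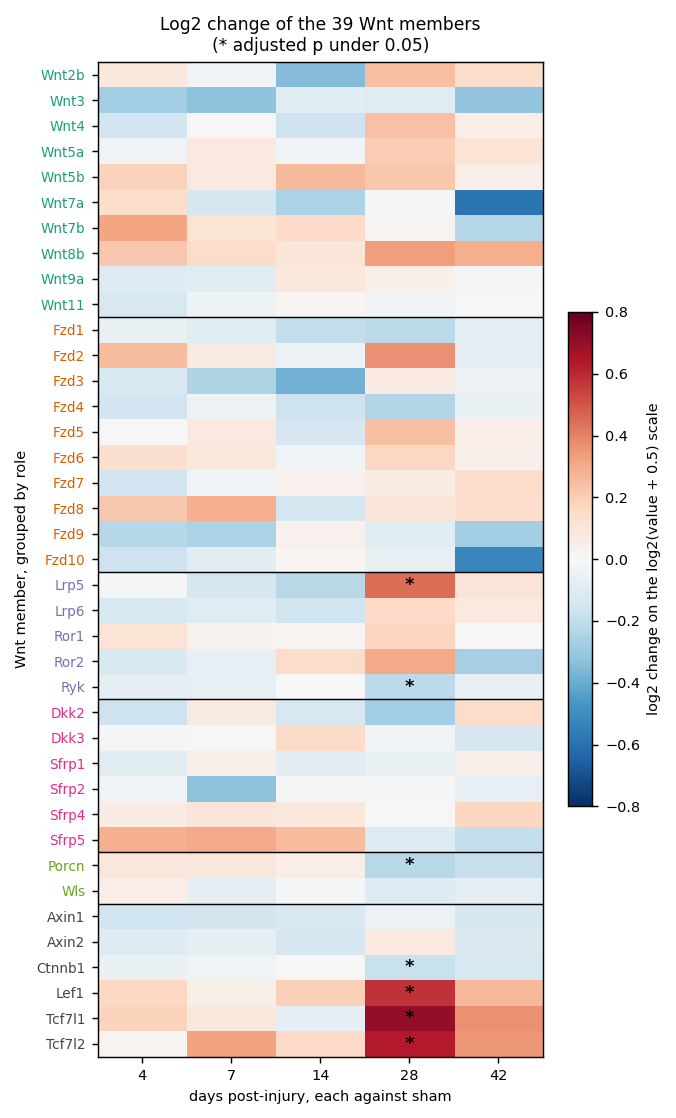
Colour gives the log2 change of each of the 39 Wnt members against sham on the log2(value + 0.5) scale (grouped by role) in 5 columns from 4 to 42 dpi, and an asterisk marks an adjusted p under 0.05. The 7 asterisks all stand at 28 dpi, the strongest rises being those of Tcf7l1 (0.70), Tcf7l2 (0.63) and Lef1 (0.58).

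Between 14 and 28 dpi 11 of the 39 members were called (28.2%), again fewer than the 43.0% of all genes. Wnt2b, Wnt5a, Fzd3, Fzd5, Lrp5, Lrp6, Tcf7l1 and Tcf7l2 rose, although the signs of Wnt5a (-0.0083) and Lrp6 (-0.0086) turned when values were corrected for transcript length and GC content. Ryk, Porcn and Ctnnb1 fell. Among all genes 21.0% rose and 21.9% fell. Lrp5 and Tcf7l1 passed a fold change of 1.5 as well, as did 11.8% of all genes. This comparison and the one of 28 dpi with sham share the 28 dpi animals, so the 2 sets of values below are not independent. Between 28 and 42 dpi no member was called by limma (1.94% of all genes were), with 7 of 39 at an unadjusted p under 0.05, as were 3583 of all 16995 genes. A moderated F test over the 6 groups called 9 members, Wnt7a, Wnt7b, Fzd3, Lrp5, Lrp6, Sfrp5, Porcn, Tcf7l1 and Tcf7l2, where 31.6% of all genes were called.

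Residual ribosomal RNA also differed between the groups. The ribosomal RNA gene Rn18s-rs5 made up 3.77 to 6.47% of the summed values in sham animals, 5.66 to 34.5% at 28 dpi, where 4 of the 5 animals had over 20%, and 8.90 to 28.0% at 42 dpi. At 28 dpi the share and the group are therefore largely confounded and cannot be fully told apart, and the part of ribosomal RNA in the members' changes was not tested. With its log2 value as a covariate, no member and none of all 16995 genes was called at 28 dpi against sham. The size of most changes was little altered in that fit: the log2 change was 0.64 for Tcf7l2 (adjusted p = 0.110), 0.53 for Lef1 (0.190), 0.48 for Lrp5 (0.101), -0.23 for Ryk (0.143) and -0.19 for Ctnnb1 (0.133), whereas Tcf7l1 went to 0.38 (0.311) and Porcn to -0.12 (0.504). All 11 members called between 14 and 28 dpi stayed called with the covariate. Animal A4-1 was the exception at 28 dpi, with 5.66% Rn18s-rs5, inside the sham range. In this animal Tcf7l2 (3.8), Lrp5 (12) and Lef1 (3.9) were above every sham animal and Ctnnb1 (212.3) below every one, whereas Porcn (18.5), Ryk (21.0) and Tcf7l1 (0.8) lay within the sham range. Animal A6-3 at 14 dpi had the largest share of all (37.6%). It had the highest 14 dpi values of Tcf7l2 (3.9), Lef1 (3.3), Tcf7l1 (0.9) and Lrp5 (7.4) and the lowest of Porcn (16.1). Its Ryk (22.7) and Ctnnb1 (241.0) lay inside the range of the other 14 dpi animals. Animal A5-3 at 14 dpi, with 27.4%, did not share these values. It had Tcf7l2 at 1.7, Lef1 at 1.7, Tcf7l1 at 0.4, Lrp5 at 6.0 and Porcn at 19.6, with Ryk at 23.3 and Ctnnb1 at 244.8.

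The 12 members called in at least 1 comparison are given below with the value of every animal, from the lowest to the highest in each group. They are ordered from the nuclear end of the pathway outwards.

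**Figure D3:**
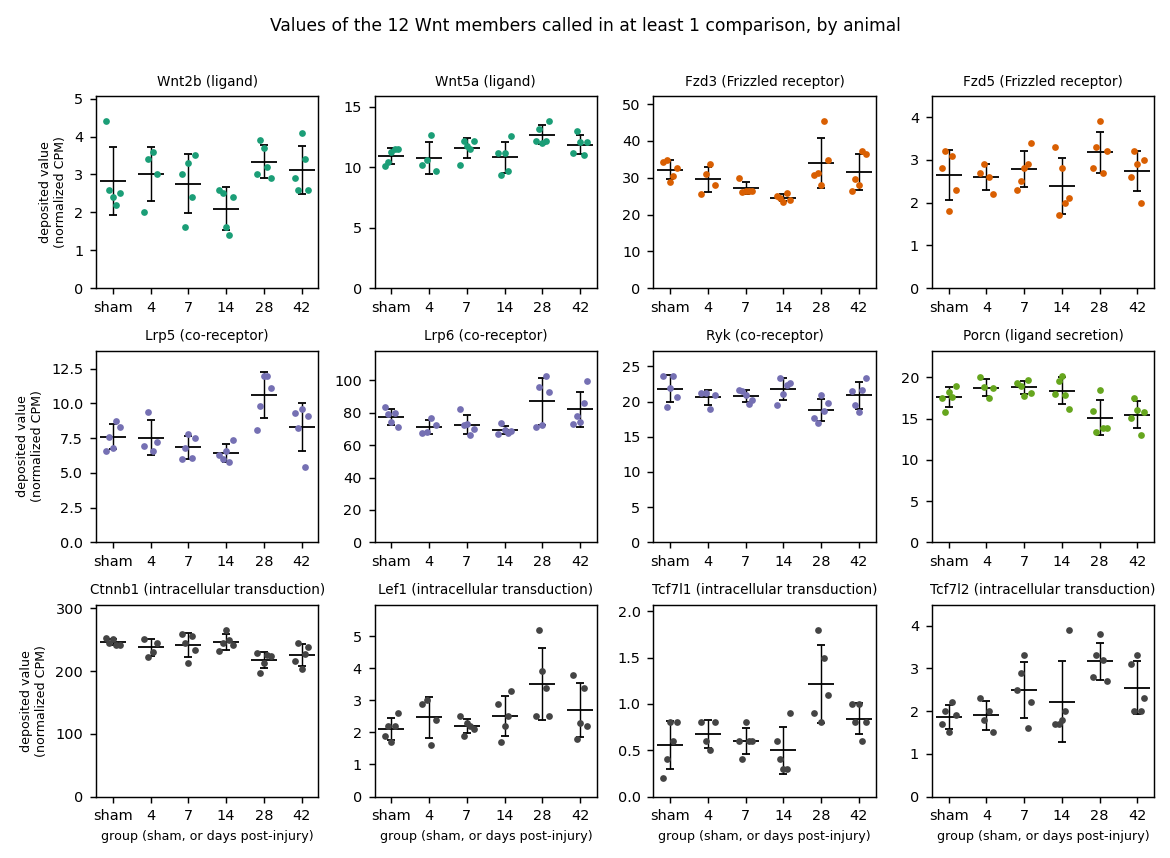
Each point is the deposited value (normalized CPM) of 1 animal for the 12 Wnt members called in at least 1 comparison, in the sham group and in each stroke group; horizontal lines are group means and bars 1 SD (n = 5, at 4 dpi n = 4). Tcf7l2 at 28 dpi (2.7 to 3.8) lies above the sham group (1.5 to 2.2), and Ctnnb1 at 28 dpi (196.7 to 228.7) below it (240.7 to 252.8).

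Lef1, Tcf7l1 and Tcf7l2, 3 DNA-binding partners of β-catenin, rose at 28 dpi. Tcf7, the remaining gene of that family and not among the 39, was at 1.28 in sham and 1.64 at 28 dpi. It was not called against sham (log2 0.27, adjusted p = 0.236, limma), but was called as higher than at 14 dpi (log2 0.50, adjusted p = 0.0148). The promoters of Lef1, Tcf7l1 and Tcf7l2 are shown because these 3 were called as higher against sham. Each line gives the 250 bases before the RefSeq transcription start (GRCm38.p6, the build of mm10), read in the direction of the gene, with CpG dinucleotides in capitals. The Lef1 window is chr3:131110073-131110322 on the plus strand, and the RefSeq start lies 148 bases upstream of the gene start in the authors' table. The Tcf7l1 window is chr6:72789046-72789295 on the minus strand, its start 209 bases inside the gene of that table, and the Tcf7l2 window chr19:55741560-55741809 on the plus strand.
Lef1: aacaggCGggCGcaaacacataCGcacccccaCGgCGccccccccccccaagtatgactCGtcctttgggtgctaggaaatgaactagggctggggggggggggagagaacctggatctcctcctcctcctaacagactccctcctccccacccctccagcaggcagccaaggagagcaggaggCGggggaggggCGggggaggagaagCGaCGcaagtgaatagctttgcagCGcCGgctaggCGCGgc
Tcf7l1: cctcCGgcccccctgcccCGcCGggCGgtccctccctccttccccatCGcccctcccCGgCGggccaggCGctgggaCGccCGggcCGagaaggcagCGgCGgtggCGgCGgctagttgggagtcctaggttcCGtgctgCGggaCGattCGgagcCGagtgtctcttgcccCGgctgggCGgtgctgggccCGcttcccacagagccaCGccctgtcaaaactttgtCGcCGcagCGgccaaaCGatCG
Tcf7l2: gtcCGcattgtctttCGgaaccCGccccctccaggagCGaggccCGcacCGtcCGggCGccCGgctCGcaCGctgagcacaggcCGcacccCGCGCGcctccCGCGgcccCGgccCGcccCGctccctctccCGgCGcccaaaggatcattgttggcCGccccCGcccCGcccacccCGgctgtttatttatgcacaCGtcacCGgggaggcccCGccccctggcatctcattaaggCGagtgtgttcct
The windows hold 14, 29 and 30 CpGs, more than 70.6%, 93.2% and 94.1% of the 32851 mouse promoter windows of that length. The 26 members with a RefSeq promoter had a median of 27 CpGs against 6 over all windows. The letters CTTTGAT or CTTTGAA, a form of the site that LEF and TCF proteins bind, were searched on both strands and do not occur in any of the 3 windows. They were present in 7.5% of all windows and in 1 of the 26 members' windows, that of Wnt11.

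Tcf7l2 (mm10 chromosome 19, 55741810 to 55933654), which is also a gene of the oligodendrocyte lineage, had values of 1.5, 1.7, 1.9, 2.0 and 2.2 in sham and 2.7, 2.8, 3.2, 3.3 and 3.8 at 28 dpi. At 14 dpi they were 1.7, 1.7, 1.8, 2.0 and 3.9, and the other groups ran 1.5, 1.8, 2.0 and 2.3 (4 dpi), 1.6, 2.2, 2.5, 2.9 and 3.3 (7 dpi) and 2.0, 2.0, 2.3, 3.1 and 3.3 (42 dpi). All 28 dpi animals were above all sham animals, and 1 animal at 14 dpi (A6-3) was above the 28 dpi group. The mean was 3.16 ± 0.439 (SD, n = 5) at 28 dpi and 1.86 ± 0.270 (n = 5) in sham, a rise of 1.55-fold on the log2(value + 0.5) scale (log2 change 0.63, SE 0.18, adjusted p = 0.0124, limma). The rise over 14 dpi was smaller (log2 0.48, adjusted p = 0.0312) and was lost when any of 7 animals was left out, 4 of them at 14 dpi (A5-1, A5-3, A5-4 and A6-2) and 3 at 28 dpi (A3-3, A4-1 and A4-3), with adjusted p up to 0.0828.

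Tcf7l1 (chromosome 6, 72626378 to 72789254), known mainly as a repressor of Wnt target genes, was the lowest of the called members, and its values are only a few rounding steps above 0. They were 0.2, 0.4, 0.6, 0.8 and 0.8 in sham, 0.3, 0.3, 0.4, 0.6 and 0.9 at 14 dpi, with 0.8, 0.9, 1.1, 1.5 and 1.8 at 28 dpi. The remaining groups had 0.5, 0.6, 0.8 and 0.8 (4 dpi), 0.4, 0.6, 0.6, 0.6 and 0.8 (7 dpi) and 0.6, 0.8, 0.8, 1.0 and 1.0 (42 dpi). The 28 dpi group touched the sham group in a single animal. Its log2 change was 0.70 (SE 0.19, adjusted p = 0.0108) against sham and 0.78 (SE 0.19, adjusted p = 0.00187) against 14 dpi. Its size varied with the processing, the log2 change against sham running from 0.38 to 1.13 over 11 other settings, and the call against sham was lost with quantile normalization, with the ribosomal RNA covariate and with only the groups compared.

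Lef1 (chromosome 3, 131110471 to 131224356) had values of 1.7, 1.9, 2.2, 2.2 and 2.6 in sham and 2.5, 2.5, 3.4, 3.9 and 5.2 at 28 dpi. The other time points gave 1.6, 2.4, 2.9 and 3.0 (4 dpi), 1.9, 2.1, 2.2, 2.3 and 2.5 (7 dpi), 1.7, 2.2, 2.5, 2.9 and 3.3 (14 dpi) and 1.8, 2.2, 2.3, 3.4 and 3.8 (42 dpi). Here 3 of 5 animals at 28 dpi exceeded all sham animals and 2 lay just under the highest one. The mean was 3.50 ± 1.12 against 2.12 ± 0.342 in sham (log2 change 0.58, SE 0.19, adjusted p = 0.0251). The difference from 14 dpi was not called (adjusted p = 0.0940). It was called as higher at 28 dpi without 14 dpi animal A6-3 or without 28 dpi animal A3-1. Without 28 dpi animal A3-3, which held the value of 5.2, or without sham animal A12-1, the call against sham was lost, with adjusted p up to 0.106, as it was with quantile normalization, the ribosomal RNA covariate, the animals of high ribosomal RNA left out, or only the groups compared. Of the 31-base words of Lef1, 14.7% are shared with other genes, most often with Gm43352 on the opposite strand. The library is not stated to keep strand.

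Ctnnb1 (chromosome 9, 120929216 to 120960507), β-catenin itself, moved the other way. Its values were 240.7, 241.6, 245.0, 250.7 and 252.8 in sham and 196.7, 212.3, 224.2, 225.8 and 228.7 at 28 dpi. The 4 dpi animals had 223.1, 231.0, 244.8 and 251.2, those at 7 dpi 212.8, 234.1, 244.2, 256.2 and 259.1, those at 14 dpi 232.4, 241.0, 244.8, 249.3 and 265.7, and those at 42 dpi 202.5, 215.4, 226.7, 239.0 and 245.4. Every animal at 28 dpi was below every sham and every 14 dpi animal. The fall was small, to 0.883-fold of sham (log2 -0.18, SE 0.06, adjusted p = 0.0281) and by the same amount from 14 dpi (log2 -0.18, adjusted p = 0.0149). Leaving out sham animal A12-1 or 28 dpi animal A3-3 ended the call against sham, with adjusted p up to 0.105, and the call from 14 dpi was lost without 14 dpi animal A5-4 or 28 dpi animal A3-3 (adjusted p up to 0.0616). Scaling all animals to the same upper quartile ended both calls, at adjusted p of 0.0840 and 0.0867. Leaving out the animals of high ribosomal RNA ended both as well. The call against sham was also lost with the ribosomal RNA covariate and with only the groups compared. Ctnnb1 shares 13.2% of its 31-base words with other genes, most often with Ulk4 on the opposite strand. Axin2, a common readout of β-catenin activity, was at 9 ± 1.01 in sham and 9.52 ± 0.705 at 28 dpi, with group means between 8.16 and 9.52, and was not called in any comparison of the values as deposited. Its difference between 14 and 28 dpi (log2 0.22, adjusted p = 0.0799) was called as higher at 28 dpi with upper quartile scaling and without 14 dpi animal A6-2. Axin1 means lay between 14.3 and 16.

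Of the co-receptors, Lrp5 rose, Ryk fell, and Lrp6 differed only between 14 and 28 dpi. Lrp5 (chromosome 19, 3584828 to 3686564) had values of 6.6, 6.8, 7.6, 8.3 and 8.7 in sham, 5.8, 6.0, 6.3, 6.6 and 7.4 at 14 dpi and 8.1, 9.8, 11.1, 12 and 12 at 28 dpi. At 4 dpi they were 6.6, 6.9, 7.2 and 9.4, at 7 dpi 6.0, 6.1, 6.8, 7.5 and 7.8, and at 42 dpi 5.4, 8.2, 9.1, 9.3 and 9.6. All 28 dpi animals were above all 14 dpi animals, and 4 of them above all sham animals. The mean went from 7.60 ± 0.914 in sham to 10.6 ± 1.66 at 28 dpi (log2 0.45, SE 0.13, adjusted p = 0.0151) and was 6.42 ± 0.626 at 14 dpi (log2 difference 0.67, SE 0.13, adjusted p = 0.000209). No single animal ended either call when left out. After the length and GC correction the change against sham was 0.26 and no longer called (adjusted p = 0.0979), and the one from 14 dpi was 0.39 and called.

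Lrp6 (chromosome 6, 134446476 to 134566965), the other low-density-lipoprotein-receptor-related co-receptor, had values of 67.1, 67.7, 68.7, 69.3 and 74.0 at 14 dpi and 71.3, 72.2, 93.1, 95.8 and 103.0 at 28 dpi. Sham animals had 71.0, 74.3, 79.4, 79.6 and 83.7, and the rest 67.5, 68.1, 72.2 and 77.0 (4 dpi), 66, 69.8, 72.2, 73.2 and 82.1 (7 dpi) and 73.4, 74.2, 78.1, 86.1 and 99.4 (42 dpi). At 28 dpi the animals fell apart into 2 near the 14 dpi level and 3 above every sham animal. The log2 difference between 14 and 28 dpi was 0.31 (SE 0.09, adjusted p = 0.00545), and it was -0.0086 (adjusted p = 0.934) with the length and GC correction. Against sham it was 0.15 and not called.

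Ryk (chromosome 9, 102834917 to 102908305), a receptor for Wnt ligands without an active kinase, had values of 19.2, 20.7, 21.9, 23.7 and 23.7 in sham, 19.5, 21.1, 22.4, 22.7 and 23.3 at 14 dpi, with 17, 17.7, 18.6, 19.8 and 21.0 at 28 dpi. The other groups held 19.0, 21.0, 21.2 and 21.2 (4 dpi), 19.7, 20.3, 21.0, 21.5 and 21.6 (7 dpi) and 18.5, 19.5, 21.5, 21.7 and 23.3 (42 dpi). At 28 dpi 3 of 5 animals were below all sham animals, and the groups overlapped. The log2 change was -0.21 (SE 0.07) both against sham (adjusted p = 0.0353) and from 14 dpi (adjusted p = 0.0213). The call against sham was lost without sham animal A11-1, A12-1 or A12-2 or 28 dpi animal A3-1, A3-3 or A4-3 (adjusted p up to 0.113), and the call from 14 dpi without 14 dpi animal A5-3 or 28 dpi animal A3-3 (adjusted p up to 0.0719). With upper quartile scaling both were lost, at adjusted p of 0.0897 and 0.0907. Both were also lost with quantile normalization, without the animals of high ribosomal RNA and with only the groups compared. The call against sham was lost with the ribosomal RNA covariate too. Ror1, with group means of 1.36 to 1.58, was not called in any comparison, nor in the fit with a pseudocount of 0.5 was Ror2, a receptor for Wnt5a, although its 42 dpi values of 1.8, 2.0, 2.0, 2.0 and 2.2 were below all 28 dpi values of 2.3, 3.0, 3.4, 3.4 and 4.2 (log2 -0.57, adjusted p = 0.0522). Ror2 was called as lower at 42 dpi with a pseudocount of 1, with a mean value of at least 1 required, with the unit number as a random block and without sham animal A12-1, 7 dpi animal A8-1 or 28 dpi animal A3-1. It was singled out after its values were seen.

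Fzd3 (chromosome 14, 65201026 to 65262463), a Frizzled receptor needed for axon guidance in development, had values of 28.9, 30.4, 32.5, 34.3 and 34.8 in sham, 23.4, 23.9, 24.4, 25.1 and 25.9 at 14 dpi, with 28.0, 30.8, 31.3, 34.9 and 45.3 at 28 dpi. The 4 dpi animals had 25.7, 27.9, 31 and 33.6, the 7 dpi animals 26.0, 26.4, 26.5, 26.5 and 30 and the 42 dpi animals 26.4, 28.0, 29.7, 36.4 and 37.2. The 14 dpi group was below every sham and every 28 dpi animal. Against sham the difference of -0.38 at 14 dpi (unadjusted p = 0.000668) was not called over all genes (adjusted p = 0.380), whereas the rise from 14 to 28 dpi was (log2 0.45, SE 0.10, adjusted p = 0.000844). After the length and GC correction this rise was 0.04 (adjusted p = 0.735).

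Fzd5 (chromosome 1, 64730558 to 64737751) was at 1.7, 2.0, 2.1, 2.8 and 3.3 at 14 dpi and 2.7, 2.8, 3.2, 3.3 and 3.9 at 28 dpi. In sham they were 1.8, 2.3, 2.8, 3.1 and 3.2, and elsewhere 2.2, 2.6, 2.7 and 2.9 (4 dpi), 2.3, 2.5, 2.8, 2.9 and 3.4 (7 dpi) and 2.0, 2.6, 2.9, 3.0 and 3.2 (42 dpi). The 14 and 28 dpi groups overlapped in 4 of the 5 later animals. The log2 difference of 0.37 (SE 0.15) was called narrowly (adjusted p = 0.0490), was lost in 19 of the 29 fits that left out 1 animal (adjusted p up to 0.155), and was 0.16 (adjusted p = 0.397) after the length and GC correction. Fzd5 shares 17.2% of its 31-base words with other genes, most often with Gm38058 on the opposite strand. The other 8 Frizzled receptors were not called in any comparison of the values as deposited with all animals, and under other settings Fzd2 was called between 14 and 28 dpi (upper quartile scaling, or without 14 dpi animal A6-3 or 28 dpi animal A3-1) and Fzd4 against sham at 28 dpi (length and GC correction, or without sham animal A12-2 or 28 dpi animal A4-4). The F test called Fzd4 with that correction, Fzd8 without 42 dpi animal A1-2 and Fzd10 without 42 dpi animal A1-3. Their group means were 10.5 to 12.3 for Fzd1, 1.24 to 1.84 for Fzd2, 10.2 to 12.1 for Fzd4, 2.86 to 3.34 for Fzd6, 4.25 to 5.40 for Fzd7, 2.30 to 3.28 for Fzd8, 3.72 to 4.70 for Fzd9 and 1.84 to 2.86 for Fzd10.

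Among the ligands, Wnt2b and Wnt5a rose from 14 to 28 dpi and none was called against sham. Wnt2b (chromosome 3, 104945272 to 104961921) had values of 1.4, 1.6, 2.4, 2.5 and 2.6 at 14 dpi and 2.9, 3.0, 3.2, 3.7 and 3.9 at 28 dpi. Sham animals had 2.2, 2.4, 2.5, 2.6 and 4.4, and the remaining groups 2.0, 3.0, 3.4 and 3.6 (4 dpi), 1.6, 2.4, 3.0, 3.3 and 3.5 (7 dpi) and 2.6, 2.6, 2.9, 3.4 and 4.1 (42 dpi). The 14 and 28 dpi animals did not overlap, and the sham group spanned the 28 dpi range because of 1 animal (A11-1, 4.4). The log2 difference was 0.58 (SE 0.19, adjusted p = 0.0126), called in all 12 other settings, and just missed the limit without 14 dpi animal A6-2 (adjusted p = 0.050).

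Wnt5a (chromosome 14, 28504750 to 28527447), a ligand of the branches that run without β-catenin and a repellent of corticospinal axons, had values of 9.4, 9.7, 11.2, 11.2 and 12.6 at 14 dpi and 12, 12.2, 12.2, 13.2 and 13.8 at 28 dpi. Sham values were 10.1, 10.4, 11.3, 11.5 and 11.5, and those of the other groups 9.7, 10.2, 10.6 and 12.7 (4 dpi), 10.2, 11.5, 11.8, 12.2 and 12.2 (7 dpi) and 11, 11.2, 12.1, 12.1 and 13 (42 dpi). All 28 dpi animals were above all sham animals, but the change against sham (log2 0.20) had an adjusted p of 0.0728, and it was called after upper quartile scaling. The log2 difference from 14 dpi was 0.23 (SE 0.08, adjusted p = 0.0295) and -0.0083 (adjusted p = 0.946) after the length and GC correction. It was lost without 14 dpi animal A5-3 or A6-2 or 28 dpi animal A3-3 or A4-4 (adjusted p up to 0.10).

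Wnt7a and Wnt7b are ligands used by neural cells in building the vessels of the central nervous system. Both were called in the F test but in none of the 7 comparisons between groups in the fit described above. The 4 and 42 dpi groups were not compared with each other. Both genes were singled out after their values were seen. Wnt7b was highest at 4 dpi, with values of 15.3, 18.4, 21.0 and 21.2, against 14.3, 14.3, 14.9, 15.7 and 16.1 in sham, and lowest at 42 dpi, with 10.3, 12.7, 12.9, 13.8 and 14.7 (F test adjusted p = 0.00382). In Wnt7a the means were 6.40 at 4 dpi, 5.70 in sham and 3.72 at 42 dpi, where the animals had 2.3, 3.3, 3.6, 3.9 and 5.5 against 4.8, 4.8, 6.0, 6.4 and 6.5 in sham (F test adjusted p = 0.0178, a call lost with the ribosomal RNA covariate and without 42 dpi animal A1-1). Neither difference from sham was called at 4 dpi (log2 0.31 and 0.14, adjusted p = 0.462 and 1.00) or at 42 dpi (-0.23 and -0.59, adjusted p = 0.271 and 0.120), given for Wnt7b and then Wnt7a. Between 28 and 42 dpi Wnt7a differed by -0.58 (adjusted p = 0.0604), which was called with the unit number as a random block and without 28 dpi animal A3-1. The 6 other ligands were not called anywhere: group means were 3.02 to 3.86 for Wnt3, 1.68 to 2.50 for Wnt4, 1.10 to 1.40 for Wnt5b, 0.62 to 0.96 for Wnt8b, 0.820 to 1.00 for Wnt9a and 0.63 to 0.76 for Wnt11.

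In ligand secretion, Porcn (chromosome X, 8193848 to 8206525) fell. It had values of 15.8, 17.5, 17.6, 18.2 and 19.0 in sham, 16.1, 17.9, 18, 19.6 and 20.2 at 14 dpi, with 13.4, 13.8, 13.9, 15.9 and 18.5 at 28 dpi. The other groups were at 17.5, 18.7, 18.8 and 20 (4 dpi), 17.7, 18.1, 19.0, 19.3 and 19.7 (7 dpi) and 13, 15.1, 15.8, 16 and 17.5 (42 dpi). At 28 dpi 3 of 5 animals were below all sham animals and 4 below all 14 dpi animals, and 1 (A4-1) was in the range of both. The change from 14 dpi was -0.28 (SE 0.08, adjusted p = 0.00794), called in all 12 other settings and with any animal left out. Against sham it was -0.22 (SE 0.08, adjusted p = 0.0480), called in only 5 of the 12 other settings. That call was lost in 20 of the 29 fits that left out 1 animal (adjusted p up to 0.143). Wls was not called, with group means of 18.8 to 21.0.

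The secreted modulators gave no call in any of the 7 comparisons between groups in the values as deposited. The 4 and 7 dpi groups were not compared with 28 or 42 dpi. Dkk3 had group means of 78.9 to 96.7, Sfrp1 of 23.0 to 25.2, Sfrp2 of 2.68 to 3.42, Sfrp4 of 0.940 to 1.16 and Dkk2 of 0.520 to 0.860. Sfrp5, a secreted ligand-binding protein, was called by the F test alone (adjusted p = 0.0385), a call lost with upper quartile scaling, the length and GC correction, the animals of high ribosomal RNA left out and in 14 of the 29 fits that left out 1 animal. It too was singled out after its values were seen. Its means were 4.46 in sham, 5.60, 5.54 and 5.36 at 4, 7 and 14 dpi and 4.04 and 3.90 at 28 and 42 dpi. Its fall from 14 to 28 dpi (log2 -0.36) had an adjusted p of 0.0651, and it was called with quantile normalization, with the ribosomal RNA covariate, with only the groups compared and without 14 dpi animal A5-4.

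Transcript length went along with the direction between 14 and 28 dpi. The 8 members that rose had a median longest transcript of 6.96 kilobases and the 3 that fell one of 3.07 kilobases, against 3.66 for all 39. Over 16919 genes, which are not independent replicates and share the same animals, Pearson's r of the log2 difference with log2 length was 0.256 between 14 and 28 dpi and 0.182 at 28 dpi against sham. With each animal's values corrected for length and GC content, Wnt2b, Lrp5 and Tcf7l1 stayed called as higher at 28 than at 14 dpi and Ryk, Porcn and Ctnnb1 as lower, Fzd4 was added as lower (log2 -0.29, adjusted p = 0.0142), and Fzd3, Fzd5, Lrp6 and Wnt5a were lost. Tcf7l2 also missed the threshold (adjusted p = 0.0538), at a log2 difference of 0.42 against 0.48 before the correction.

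**Figure D4:**
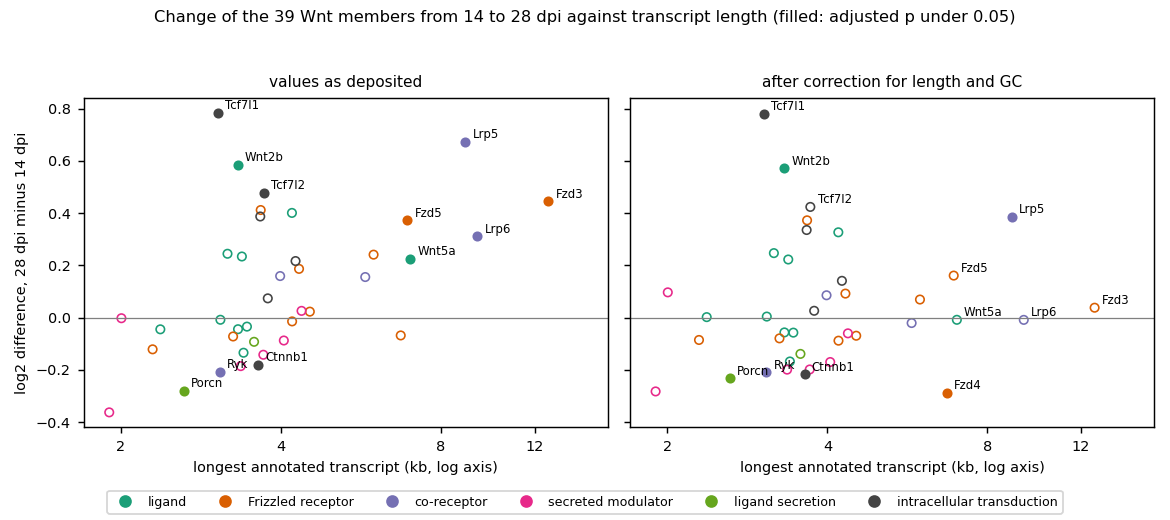
The log2 difference between 28 and 14 dpi of the 39 Wnt members (vertical axis) is plotted against the length of the longest annotated transcript (kilobases, log axis), from the values as deposited (left) and from values corrected for length and GC content (right); filled points have an adjusted p under 0.05 and colours mark the role. The long-transcript members Fzd3 (0.45), Lrp6 (0.31) and Wnt5a (0.23) move to 0.04, -0.0086 and -0.0083, the last 2 changing sign, whereas Tcf7l1 stays at 0.78 and Wnt2b at 0.57.

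The rest of the pathway was read from 7 lists of other Wnt genes, 100 of 109 of which had values. At 28 dpi 26 of the 100 were called, a share of 26.0% that was close to the 24.9% of all genes. Of the 100, 21 rose and 5 fell, where 11.9% of all genes rose and 13.0% fell. The median log2 change of the 100 was 0.07. Among the partners of β-catenin in the nucleus 4 of 14 rose and 2 fell. The co-activators Bcl9l (log2 0.71) and Bcl9 (0.60) and the chromatin remodeller Chd8 (0.25) rose. Ctnnbip1, which keeps β-catenin from its DNA-binding partners, fell (-0.28). The others called were Tle3, which rose (0.36), and Ctbp1, which fell (-0.24). In the planar cell polarity and calcium branch 6 of 22 rose and 1 fell: the atypical cadherin Celsr2 went from 121 ± 20.8 in sham to 222 ± 48.7 (log2 0.86, adjusted p = 0.00232), Nfatc1 (0.58) and the polarity protein Vangl2 (0.32) rose, and the small GTPase Rac1 fell (-0.25).

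Of the dishevelled and destruction complex genes 5 of 29 rose and none fell, among them Apc2 (0.46), Dvl3 (0.51), the kinase Gsk3b (0.29) and the casein kinase Csnk1g1 (0.26). Of the secreted agonists and their receptors 3 of 10 rose, the R-spondin receptors Lgr6 (0.40) and Lgr5 (0.23) and Reck (0.37), and the Fzd4 partner Tspan12 fell (-0.27). In the glypican and co-receptor list Gpc6 (0.37) and Gpc4 (0.51) rose and the syndecan Sdc4 fell (-0.25) out of 8. Of the 11 secreted and membrane inhibitors only Znrf3, a ubiquitin ligase that removes Frizzled receptors, was called, rising from 9.64 ± 1.27 in sham to 13.5 ± 0.958 (log2 0.48, adjusted p = 0.00183). Of the 13 commonly used β-catenin target genes outside the members, Znrf3 and Lgr5 were called (15.4%, against 24.9% of all genes), 8 were higher and 5 lower, and the 11 uncalled genes ranged from -0.12 (Slc2a1) to 0.29 (Rnf43). With Rn18s-rs5 as a covariate none of the 100 was called. Without sham animal A12-1 or 28 dpi animal A3-3 the count fell to between 12 and 14.

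**Figure D5:**
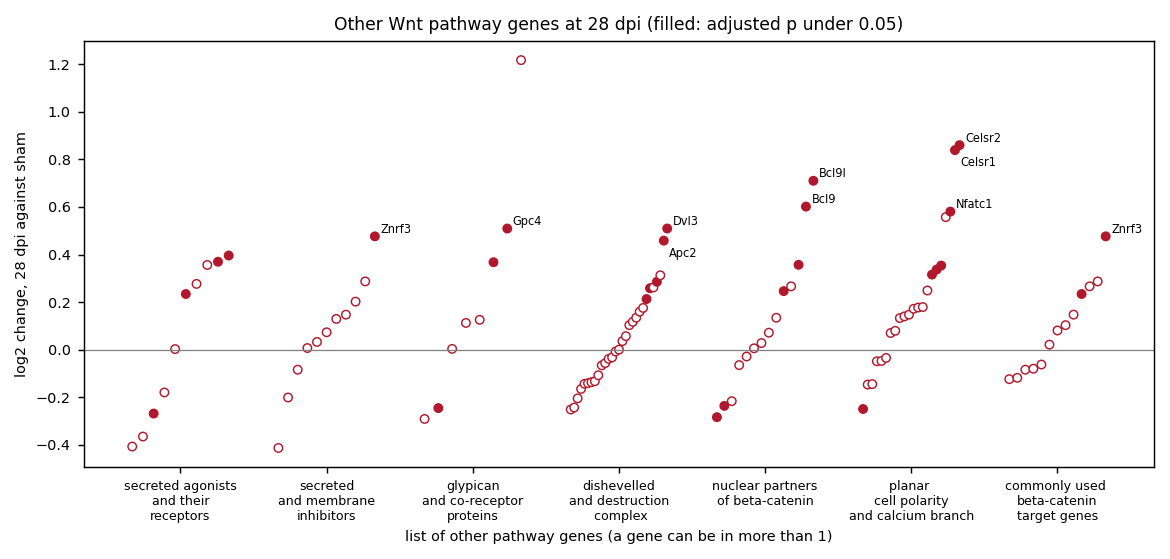
Each point is 1 of the other Wnt pathway genes, placed by list and by its log2 change at 28 dpi against sham, with filled points at an adjusted p under 0.05. Celsr2 (0.86), Celsr1 (0.84) and Bcl9l (0.71) are the highest filled points, and the 5 genes that fell lie between -0.28 and -0.24.

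Markers of several cell types differed at 28 dpi, where 24.9% of all genes were called, and between 14 and 28 dpi, where 43.0% were. Some also lay apart from sham at times when no member was called. At 42 dpi all 7 markers of mature oligodendrocytes were lower than in sham (median log2 change -0.36). None was called there, and 6 had an unadjusted p under 0.05 by limma, as had 2507 of all 16995 genes. Microglial markers were furthest from sham at 4 dpi, where all 7 were higher (median 0.58) and 1 was called. At 28 dpi 4 of 7 markers of mature oligodendrocytes fell against sham and 6 of 7 fell from 14 dpi, their summed values running from 6237 to 9282 in sham and from 4486 to 6605 at 28 dpi. Of 6 markers of oligodendrocyte precursors, a list that holds Tcf7l2 itself, Gpr17 fell (-0.34) and only Tcf7l2 rose at 28 dpi. Against sham, astrocyte markers gave 1 rise and 3 falls of 7, microglial markers 1 rise of 7, and endothelial markers 2 rises (Cdh5 0.54 and Flt1 0.36) and 1 fall (Ly6c1 -0.54) of 7. The neuronal list gave 1 fall of 8 (Snap25 -0.30), the list of spinal neuron types 1 rise of 6 (Slc6a5 0.30) and the fibroblast list 1 rise of 7 (Col1a1 0.61), and no pericyte or ependymal marker was called by limma, with 1 and 0 at an unadjusted p under 0.05. From 14 to 28 dpi 3 of 7 microglial markers fell and all 7 were lower, with a median log2 difference of -0.40. In the same comparison 3 of 8 neuronal markers fell (Snap25 -0.42, Tubb3 -0.44 and Nefl -0.49) and 1 of 6 markers of spinal neuron types rose (Slc6a5 0.44). Both precursor markers called rose (Cspg4 0.62 and Tcf7l2), endothelial markers gave 2 rises and 1 fall of 7, astrocyte markers 1 rise and 1 fall of 7, and the pericyte and fibroblast lists 1 rise of 7 each (Abcc9 0.52 and Col1a2 0.27). The part of these in the members' changes was not tested. The 6 Hox genes of cervical position were present in every animal (sums of 66.6 to 94.1), as markers of spinal neurons were, and 3 pituitary genes summed to at most 0.7 in sham and 28.0 in a 7 dpi animal.

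In the number of members called at 28 dpi the animals and the scaling mattered. Leaving out sham animal A12-1 or 28 dpi animal A3-3 left 3 members, Lrp5, Tcf7l1 and Tcf7l2 in both cases, and took the calls over all genes from 4230 to 2198 and 2237. Upper quartile scaling gave 5 members that rose and none that fell, and 2431 genes that rose against 1554 that fell, where the values as deposited gave 2024 and 2206. The length and GC correction gave 3 members that rose and 4 that fell, and 1494 genes that rose against 3152 that fell. Between 14 and 28 dpi the 11 members became 6 without 28 dpi animal A3-3 and 7 without 14 dpi animal A5-3. The 8 that rose and 3 that fell became 10 and 1 with upper quartile scaling, 3 and 4 with the length and GC correction, and 7 and 1 without the animals A6-3 and A3-3 of high ribosomal RNA.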

How the data were processed

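RNA was sequenced by the authors from the intermediate laminae of C5/C6 (Ribo-Zero Gold depletion, TruSeq RNA v2, Illumina HiSeq, single end, not stated to keep strand), quantified on mm10 with SALMON, summarised per gene with Tximport and normalized with edgeR, with weakly expressed genes removed. The submitters' processing notes name R 3.4.1 and edgeR 3.14.0. The deposited score values are normalized CPM rounded to 0.1, not counts, and column sums ran from 714597 to 2256910, of which Rn18s-rs5 took 2.44 to 37.6%. Depth is not known. The authors' deposited fold changes, p-values and calls were not used.

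Values were analysed as log2(value + 0.5) with limma 3.58.1 (R 4.3.3, mean-variance trend, 1 mean per group, 29 animals), with Benjamini-Hochberg adjustment over 16995 genes. The method was tested on simulated data. No columns were identical, and Pearson's r of animals within a group was 0.974 to 0.991 across genes over 56 pairs. Each labelled animal was taken as 1 replicate. The label Ctrl was read as sham from the study's methods. Members called in any of the 7 comparisons are given with every animal's value, the others with group means. Of each other pathway list at most 4 called genes are given by smallest p, with Tle3 and Ctbp1 in addition. The members and lists were chosen with earlier results of these data known. Lengths, GC and shared 31-base words came from GENCODE M21, in which all 39 members and 16919 table genes had both, and promoters from RefSeq (26 of 39 members matched). Alternatives were pseudocounts of 1 and 0.05, a mean value of at least 1, quantile, upper quartile and sum scaling, no trend, log2 Rn18s-rs5 as a covariate, fits of only the groups compared, the unit number of the labels as a random block, a fold change above 1.5 and leaving out each animal. A correction for length and GC content (natural splines, 3 df each) and a fit without the 2 animals with over 30% Rn18s-rs5 were added after the data were seen. Python 3.11.15 was used for tables and figures.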

Additional observations from a re-analysis of the deposited data

Results flagged for a closer look

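In 12 of 234 sets of values (39 members in 6 groups), 1 animal stood far from the others of its group, a number that chance alone is close to (11.7). No explanation was weighed. The high animals were sham A11-1 for Wnt2b (4.4, others 2.2 to 2.6), sham A12-2 for Fzd7 (6.4, others 4.3 to 4.8), 28 dpi A3-3 for Wnt4 (4.4, others 1.8 to 2.5), 14 dpi A6-3 for Dkk2 (1.1, others 0.4 to 0.6) and for Tcf7l2 (3.9, others 1.7 to 2.0). At 7 dpi they were A7-4 for Wnt8b (1.0, others 0.6 to 0.7), A7-2 for Fzd3 (30, others 26.0 to 26.5), A8-3 for Fzd6 (3.4, others 3.0 to 3.1) and A8-1 for Fzd10 (3.8, others 2.2 to 2.5). At 4 dpi low animals were A10-1 for Fzd2 (1.0, others 1.9 to 2.0), A10-4 for Fzd4 (9.6, others 11.1) and A9-2 for Ryk (19.0, others 21.0 to 21.2).

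The change against sham differed between 14 and 28 dpi, by the limma test of 28 against 14 dpi, for 11 members. The log2 differences were 0.58 for Wnt2b, 0.23 for Wnt5a, 0.45 for Fzd3, 0.37 for Fzd5, 0.67 for Lrp5, 0.31 for Lrp6, 0.78 for Tcf7l1 and 0.48 for Tcf7l2, and they were -0.21 for Ryk, -0.28 for Porcn and -0.18 for Ctnnb1.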

How the results depend on the processing

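No member was called at 4, 7, 14 or 42 dpi against sham under any setting tried. At 28 dpi the 7 members became 2 with a fold change above 1.5 as well, 3 with quantile normalization, 0 with Rn18s-rs5 as a covariate, 3 without the 2 animals of high ribosomal RNA and 2 in a fit of only the groups compared, and 3 to 7 when 1 animal was left out. The 11 members between 14 and 28 dpi became 2 with the fold limit and 7 after the length and GC correction, and 6 to 13 with 1 animal left out. Between 28 and 42 dpi the count of 0 became 1 (Ror2) with a pseudocount of 1 or a mean value of at least 1, 2 (Wnt7a and Ror2) with the unit number as a random block, and 0 to 3 with 1 animal left out. The F test called 4 of its 9 members with the ribosomal RNA covariate and 5 to 10 with 1 animal left out, 5 without 28 dpi animal A3-3 or A4-3. The 26 other pathway genes at 28 dpi became 4 with the fold limit, 0 with the covariate, 14 without the 2 animals, 16 with only the groups compared and 12 to 30 with 1 animal left out. Over 18 called log2 changes of members, 171 of 214 values under other settings kept direction and call, 41 lost the call, and 2 reversed, Wnt5a (-0.0083) and Lrp6 (-0.0086) between 14 and 28 dpi after the length and GC correction. With 1 animal left out, 457 of 522 kept both and 65 lost the call. Apart from fewer animals in some fits, the causes were not tested. No paired analysis was possible because no animal number recurs in another group. The unit number, the first number of an animal label, whose meaning is not given, takes 2 values in each group and is shared only by 28 and 42 dpi (number 3), so it and the group can hardly be told apart. Tcf7l1 and the lowest ligands lie within a few rounding steps of 0, so small changes in them could not be seen.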
